A study of Saccharomyces cerevisiae with 14 samples.

Results

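The enzymes described here remove peroxide and superoxide from the cells of budding yeast. They were named by ORF: the peroxiredoxins TSA1 (YML028W), TSA2 (YDR453C), PRX1 (YBL064C) and AHP1 (YLR109W), the thioredoxin TRX2 (YGR209C), the catalases CTT1 (YGR088W) and CTA1 (YDR256C), the superoxide dismutases SOD1 (YJR104C) and SOD2 (YHR008C), and the cytochrome c peroxidase CCP1 (YKR066C). Of these 10 genes, 9 had values among the 6040 ORFs of the table, and SOD1 was not analysed here. PRX1, SOD2 and CCP1 were taken as the 3 mitochondrial enzymes, and TSA1, TSA2, AHP1, TRX2 and CTT1 as the 5 cytosolic enzymes with values. CTA1, which lies in peroxisomes and is also known from mitochondria, was put in neither class.

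Superoxide leaks mainly from the respiratory chain and is turned into hydrogen peroxide by superoxide dismutases, of which Sod2 works in the mitochondrial matrix and Sod1 mainly in the cytosol. Hydrogen peroxide is then reduced by peroxiredoxins, which take electrons from thioredoxin, by cytochrome c peroxidase, which takes them from cytochrome c between the mitochondrial membranes, or is split by catalases, which need no donor. In yeast many of these genes are controlled by the peroxide-responsive factors Yap1 and Skn7 and by the general stress factors Msn2 and Msn4.

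The transcripts of an artemisinic acid producer, EPY330, were compared with those of EPY338, in which a point mutation inactivates AMO, the amorphadiene oxidase (CYP71AV1) that makes artemisinic acid. Both strains share the EPY300 background (MATα his3Δ1 leu2Δ0, with lys2Δ0 and ura3Δ0 repaired, PGAL1-tHMGR in 2 copies, PGAL1-upc2-1, erg9::PMET3-ERG9 and PGAL1-ERG20), derived from BY4742, and both carry a pESC-Leu2d plasmid with amorphadiene synthase (ADS), AMO or AMO-KO, and the cytochrome P450 reductase CPR under GAL1 or GAL10 promoters. Cells were induced in the galactose medium YPG and harvested after 24, 48 and 72 h. Equal RNA amounts of 5 transformants per strain were pooled, and 1 pair of pools per time point was hybridized to 4 slides at 24 h (A to D) and 5 slides each at 48 h and 72 h (A to E), with EPY330 always in Alexa555 and EPY338 always in Alexa647. By this description the SD between slides is a technical error, and the spread between cultures was not measured. A dye effect of a gene cannot be told apart from a strain difference. A plasmid lost by part of the cells and a changed level per cell cannot be told apart in such pools either.

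All values are log2(EPY330/EPY338), so that 1 stands for a 2-fold higher transcript in the producer. The 14 slides had medians from −0.02 to 0.01 and SDs over genes from 0.47 to 0.88, and slides of 1 time point correlated over genes with r from 0.36 to 0.88. At 72 h the slides fell apart: A, B and C correlated with each other (r from 0.71 to 0.78) and D with E (0.78), whereas D and E correlated with A to C at 0.44 to 0.66 and with the slides of 24 h at 0.51 to 0.71. Slides A to C of 72 h correlated with those of 24 h at −0.002 to 0.45. The methods describe replicate slides of pooled RNA, and the labels do not show whether D and E carry the same pools as A to C. The cause of the split was not tested, and the results at 72 h were also taken without D and E.

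The mitochondrial enzymes had the highest mean ratios of the members at 24 and 48 h. Within slides, SOD2 led the cytosolic TRX2 by only 0.04 ± 0.10 at 24 h and 0.08 ± 0.25 at 48 h, which is within the spread of the slides. The ratios of the mitochondrial enzymes were close to 0 on most slides at 72 h. PRX1, a peroxiredoxin of the mitochondrial matrix, had log2 ratios of 1.09, 1.93, 1.47 and 1.31 on slides A to D of 24 h, and of 0.95, 1.39, 1.66, 2.07 and 1.89 on slides A to E of 48 h. At 72 h PRX1 gave −0.02, 0.15, −0.34, 0.97 and 0.89. The lowest earlier ratio, on slide A of 48 h, was just under the highest of 72 h, on slide D, and all other slides of 72 h were below both earlier times. The means were 1.45 ± 0.35 (SD, n = 4 slides), 1.59 ± 0.44 (n = 5) and 0.33 ± 0.57 (n = 5), or 2.73-fold, 3.01-fold and 1.26-fold.

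SOD2, the manganese superoxide dismutase of the mitochondrial matrix, had log2 ratios of 0.73, 1.43, 1.41 and 1.36 on slides A to D of 24 h. At 48 h the ratios of SOD2 on slides A to E were 1.17, 1.08, 1.47, 1.96 and 1.74. At 72 h they were −0.32, −0.13, −0.54, 0.41 and 0.82. Slides A, B and C of 72 h were thus on the EPY338 side, and the highest 72 h slide, E, overlapped only slide A of 24 h. The means of SOD2 in the order of the time points were 1.23 ± 0.34, 1.48 ± 0.37 and 0.05 ± 0.56, or 2.35-fold, 2.79-fold and 1.03-fold.

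CCP1, the heme peroxidase of the intermembrane space, had log2 ratios of 0.98, 1.62, 1.46 and 1.18 at 24 h and of 0.80, 1.98, 1.61, 2.02 and 1.49 at 48 h. At 72 h CCP1 gave 0.04, 0.07, 0.0027, 0.92 and 1.26. Slides A to C of 72 h lay near 0, below all slides of the earlier times, and D and E lay among them. The mean ratio of CCP1 was 1.31 ± 0.28, 1.58 ± 0.49 and 0.46 ± 0.59 at the 3 time points.

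**Figure D1:**
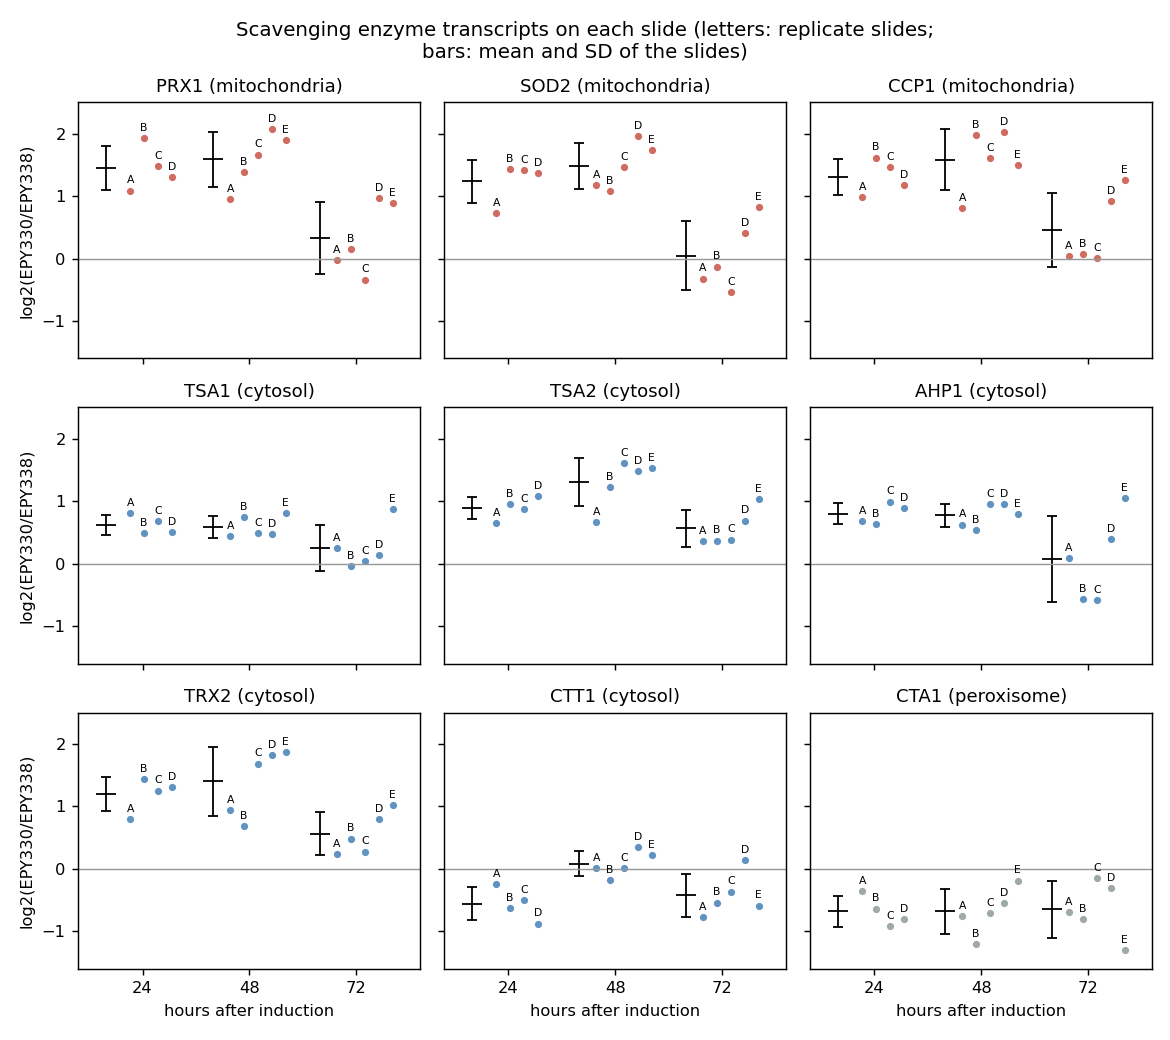
Log2(EPY330/EPY338) of the 9 members with values (y axis) at 24, 48 and 72 h after induction (x axis), with 1 point per slide, letters naming the slides, and bars giving the mean and SD of the slides (n = 4, 5 and 5). PRX1, SOD2 and CCP1 lie above 0 on all slides of 24 and 48 h, CTA1 lies below 0 on all 14 slides, and slides D and E of 72 h lie above A to C for 6 members.

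TRX2 and the cytosolic peroxiredoxins had higher transcripts in the producer at 24 and 48 h, to unequal degrees. TRX2, the thioredoxin that serves cytosolic peroxiredoxins, had log2 ratios of 0.80, 1.43, 1.25 and 1.31 at 24 h and of 0.94, 0.69, 1.68, 1.81 and 1.87 at 48 h. At 72 h TRX2 gave 0.23, 0.48, 0.27, 0.80 and 1.02, so that it stayed above 0 on all 14 slides, with the 3 lowest values on slides A, C and B of 72 h. Its means of 1.20 ± 0.28, 1.40 ± 0.55 and 0.56 ± 0.34 (2.29-fold, 2.64-fold and 1.48-fold) were near those of the mitochondrial enzymes at 24 and 48 h.

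TSA2, a peroxiredoxin known for its low basal level and strong inducibility, had log2 ratios of 0.65, 0.95, 0.88 and 1.08 at 24 h and of 0.67, 1.22, 1.61, 1.48 and 1.53 at 48 h. At 72 h the ratios of TSA2 were 0.36, 0.37, 0.39, 0.69 and 1.03. It too was above 0 on all 14 slides, and slides A, B and C of 72 h were lower than any slide of 24 or 48 h. The means were 0.89 ± 0.18, 1.30 ± 0.38 and 0.57 ± 0.29.

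TSA1, the abundant peroxiredoxin of the cytosol, ranged from 0.48 to 0.81 on the slides of 24 h, from 0.44 to 0.80 at 48 h and from −0.04 to 0.87 at 72 h, where slide E alone was above 0.25. Its means were 0.62 ± 0.16, 0.59 ± 0.17 and 0.25 ± 0.36, or 1.54-fold, 1.51-fold and 1.19-fold. With a trend over neighbouring ORF names removed, the means of TSA1 were 0.27, 0.25 and −0.07, and those of TSA2 were 1.09, 1.55 and 0.78. Within slides, TSA2 exceeded its close paralog TSA1 by 0.27 ± 0.33 at 24 h (3 of 4 slides), by 0.71 ± 0.37 at 48 h (5 of 5) and by 0.32 ± 0.18 at 72 h (5 of 5). On whole-ORF cDNA spots such paralogs can share signal, so their separate ratios are uncertain, and the same holds for TRX1 with TRX2.

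AHP1, a peroxiredoxin that prefers alkyl hydroperoxides, had log2 ratios of 0.69, 0.63, 0.99 and 0.88 at 24 h and of 0.62, 0.54, 0.95, 0.95 and 0.80 at 48 h. At 72 h AHP1 gave 0.09, −0.56, −0.58, 0.40 and 1.05, the widest spread of any member at any time point. Slide E of 72 h was above all slides of the earlier times, and slides B and C were on the EPY338 side. The means were 0.80 ± 0.17, 0.77 ± 0.19 and 0.08 ± 0.69.

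The catalases lay on the EPY338 side or near 0. CTT1, the cytosolic catalase T, had log2 ratios of −0.24, −0.63, −0.50 and −0.88 at 24 h, of 0.01, −0.18, 0.01, 0.35 and 0.22 at 48 h, and of −0.78, −0.54, −0.37, 0.14 and −0.59 at 72 h. The slides of 24 h lay below 0, those of 48 h around it, and at 72 h only slide D lay above it. The means of CTT1 were −0.56 ± 0.26, 0.08 ± 0.20 and −0.43 ± 0.35.

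CTA1, the peroxisomal catalase A that removes the peroxide made by fatty acid oxidation, had log2 ratios of −0.36, −0.64, −0.92 and −0.80 at 24 h and of −0.76, −1.20, −0.71, −0.55 and −0.19 at 48 h. At 72 h CTA1 gave −0.69, −0.80, −0.15, −0.31 and −1.30. All 14 slides were below 0, with overlapping ranges at the 3 time points. Means of −0.68 ± 0.24, −0.68 ± 0.37 and −0.65 ± 0.45 corresponded to 1.60-fold, 1.60-fold and 1.57-fold lower transcript in the producer.

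Each time point was tested with the one-class SAM procedure, which sets the mean ratio of a gene against the spread of its slides over all sign flips, at a median false discovery rate of 0.2%. At 24 h, SAM called 5 of the 9 members, all higher in the producer: PRX1, SOD2, CCP1, TSA2 and TRX2. Over all genes SAM called 7.46% of 5861 higher and 9.37% in either direction. At 48 h PRX1, SOD2 and CCP1 were called, against 2.22% of 5721 genes called higher. These last calls rested on single slides, since leaving out slide E left 0 members called, leaving out D left 1, and leaving out A gave 5. Over all genes the 130 calls became 87, 87 and 285 in these settings. With single slides of 48 h left out, the mean ratios of the called genes stayed between 1.36 (SOD2) and 1.77 (CCP1). At 72 h, SAM called 0 members and 6.44% of 5945 genes. Without slides D and E it again called 0 members, while the calls over all genes went from 383 to 1038.

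A moderated test on the same slides (limma, Benjamini-Hochberg adjusted p under 0.05 over all genes) was more permissive. It called all 9 members at 24 h, of which CTT1 and CTA1 were lower, against 46.8% of all genes. At 48 h limma called 8 members, all but CTT1, against 37.1%, and at 72 h it called 4, against 43.1%. The 4 were TSA2 (adjusted p = 0.00599) and TRX2 (0.00893), higher, and CTT1 (0.0291) and CTA1 (0.0103), lower. No mitochondrial enzyme was among them, with adjusted p of 0.183 for PRX1, 0.853 for SOD2 and 0.0807 for CCP1, and 5 members had an unadjusted p under 0.05. The 72 h share of members called was close to that of all genes.

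By size, PRX1, SOD2, CCP1 and TRX2 were over 2-fold at 24 h, and TSA2 joined them at 48 h. The shares of all genes over 2-fold higher were 5.08% and 5.75%. No member was over 2-fold at 72 h, where 1.87% of genes were. The median over the 9 members was 0.89, 1.30 and 0.25 at the 3 time points, while that over all genes lay between −0.02 and −0.01. Ranked from the highest mean ratio, PRX1 was gene 86 of 5861, then 76 of 5721 and last 1356 of 5945 at the successive times. CCP1 went from rank 130 to 78 and 921, and SOD2 from rank 153 to 101 and 2654.

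**Figure D2:**
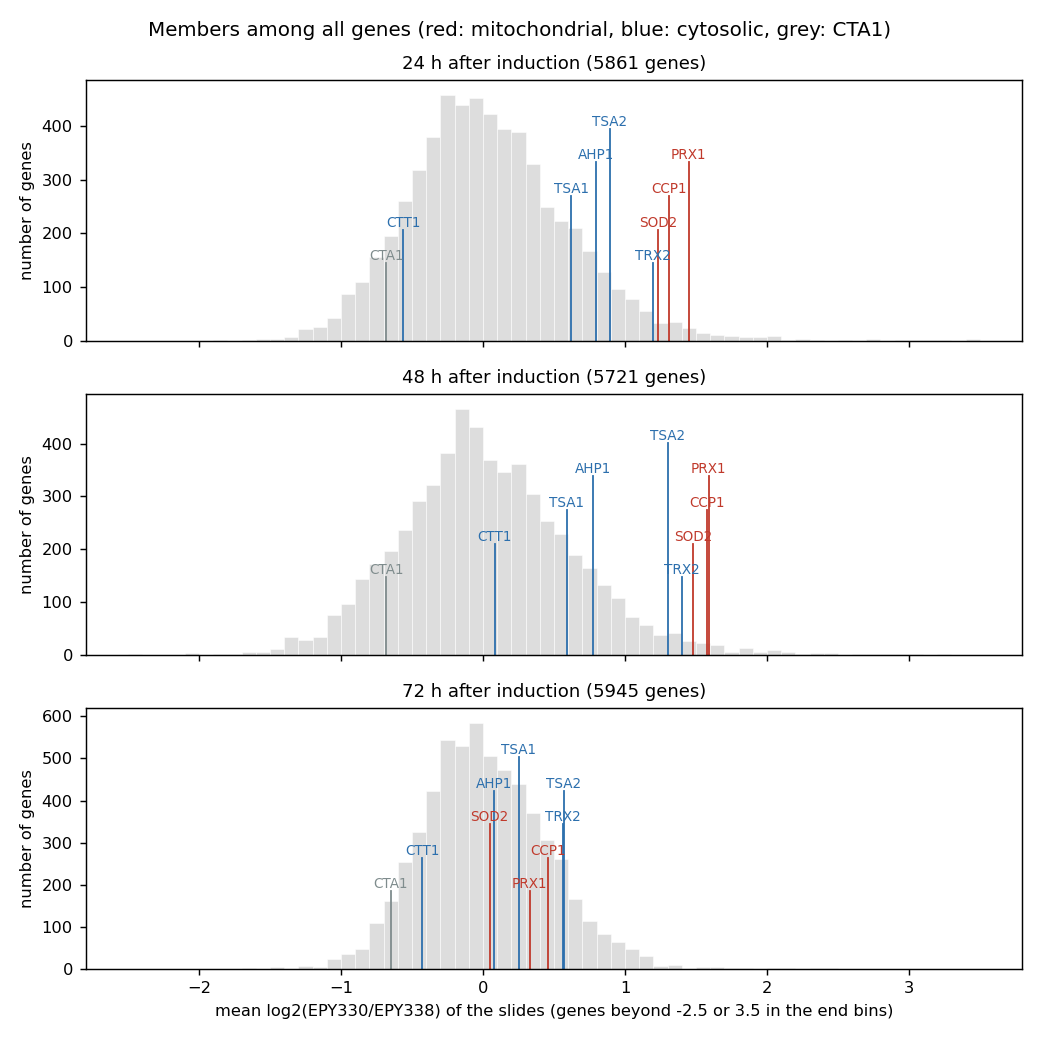
Number of genes (y axis) by mean log2(EPY330/EPY338) of the slides (x axis) at 24, 48 and 72 h, with vertical lines at the members, red for mitochondrial and blue for cytosolic enzymes and grey for CTA1. PRX1, SOD2 and CCP1 lie in the right tail at 24 and 48 h and within the bulk of the genes at 72 h, where SOD2 has a mean of 0.05.

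In order of the ratio at 24 h, PRX1 came first, then CCP1, SOD2, TRX2, TSA2, AHP1, TSA1, CTT1 and CTA1. Neighbours in this order mostly differed by less than the SD of their difference over slides. The exceptions were PRX1 over CCP1 (0.14 ± 0.12, n = 4 slides), TRX2 over TSA2 (0.31 ± 0.15) and TSA1 over CTT1 (1.18 ± 0.14). The order at 48 h was the same as at 24 h, with steps beyond the SD from TSA2 to AHP1 (0.53 ± 0.28, n = 5), from TSA1 to CTT1 (0.51 ± 0.29) and from CTT1 to CTA1 (0.76 ± 0.23). At 72 h TSA2 and TRX2 came first, and no neighbours differed by more than the SD.

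On each slide the mean of the 3 mitochondrial enzymes was set beside that of the 5 cytosolic ones. The members were chosen with results of these data known, so the difference is given as a description, with no test. In the order of time, the mitochondrial mean was 1.33 ± 0.31, 1.55 ± 0.38 and 0.28 ± 0.56. The cytosolic mean was 0.59 ± 0.05, 0.83 ± 0.24 and 0.21 ± 0.33. Mitochondrial enzymes were thus ahead by 0.74 ± 0.28 at 24 h (0.39 to 1.08, above 0 on 4 of 4 slides) and by 0.72 ± 0.22 at 48 h (0.44 to 1.001, 5 of 5 slides). At 72 h the difference was 0.07 ± 0.26 (−0.24 to 0.34, 3 of 5 slides), which is within the spread of the slides.

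The classes overlapped gene by gene. Every mitochondrial enzyme was above every cytosolic one on only 2 of the 14 slides, C of 24 h and D of 48 h. TRX2 was most often the highest cytosolic enzyme, and on slide C of 48 h, with 1.68, it was above all 3 mitochondrial enzymes. CTT1 pulled the cytosolic mean down: without it the differences were 0.45, 0.54 and −0.09 in the order of time. With CTA1 counted as mitochondrial it was 0.24, 0.16 and −0.16. The direction at 72 h also turned without slides D and E, to −0.10.

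**Figure D3:**
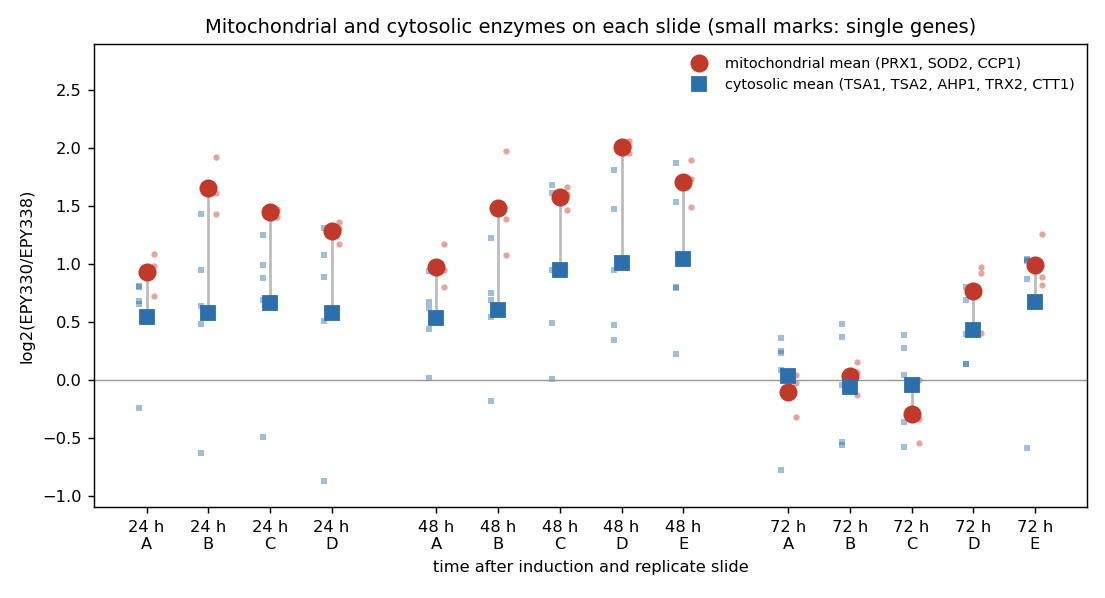
Log2(EPY330/EPY338) on each of the 14 slides (x axis, grouped by time), with large red circles for the mean of PRX1, SOD2 and CCP1, large blue squares for the mean of TSA1, TSA2, AHP1, TRX2 and CTT1, and small marks for the single genes. The circles lie above the squares on all 9 slides of 24 and 48 h and on 3 of 5 slides of 72 h.

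The change of the ratio with time was tested by limma on all 14 slides, a contrast in which a constant dye effect drops out. Per the methods the slides repeat 3 pairs of pools, so these p-values cover the error between slides alone and not that between cultures. Between 24 and 48 h, limma called 0 members, against 0.991% of 5652 genes. CTT1 alone had an unadjusted p under 0.05, with a difference of 0.64 ± 0.20 (SE, unadjusted p = 0.00445, adjusted p = 0.223). From 48 to 72 h limma called 7 of the 9 members lower, whereas 16.3% of all genes were called lower. The largest falls were those of the 3 mitochondrial enzymes: SOD2 by 1.43 ± 0.25 (adjusted p = 0.00176), PRX1 by 1.26 ± 0.27 (0.0038) and CCP1 by 1.12 ± 0.27 (0.00767).

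The cytosolic enzymes fell less from 48 to 72 h, although the difference between the classes was not tested. TRX2 fell by 0.84 ± 0.24 (adjusted p = 0.0166) and TSA2 by 0.74 ± 0.20 (0.012). AHP1 fell by 0.69 ± 0.25 (0.0455) and CTT1 by 0.51 ± 0.19 (0.0473), and each of these calls was lost when any 1 of 9 slides was left out, with adjusted p up to 0.13 for AHP1 and 0.127 for CTT1. TSA1 (−0.34, adjusted p = 0.152) and CTA1 (0.03, 0.928) did not pass. CTA1 was the only member with nearly equal means at all 3 time points.

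From 24 to 72 h only SOD2 (−1.19 ± 0.27, adjusted p = 0.0116) and PRX1 (−1.12 ± 0.28, 0.0192) passed, both lower at 72 h, while 9.16% of all genes were called lower. CCP1 (−0.85, 0.0569), AHP1 (−0.72, 0.0744) and TRX2 (−0.64, 0.0965) missed the threshold. Neither call held without slide B of 24 h, with adjusted p of 0.0501 for SOD2 and 0.0816 for PRX1, a setting in which the calls over all genes went from 810 to 174. That of PRX1 was also lost without slide A (0.0557), B (0.0521) or C (0.0565) of 72 h. Without slides D and E of 72 h, 6 members and 1248 of all genes passed, with differences of −1.57 for SOD2, −1.52 for PRX1, −1.27 for CCP1, −1.15 for AHP1, −0.87 for TRX2 and −0.54 for TSA1.

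Slides D and E of 72 h were both above A, B and C for 6 of the 9 members, compared with 22.7% of the 5327 genes with 5 values. The 6 were TSA2, PRX1, AHP1, TRX2, SOD2 and CCP1. On A to C alone the 72 h means were −0.33 for SOD2, −0.07 for PRX1, 0.04 for CCP1 and −0.35 for AHP1, while TSA2 kept 0.37 and TRX2 0.33.

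When slides were first averaged within a time point, so that each pair of RNA pools counted once (limma, n = 3), 5 of 9 members passed, and 21.4% of all genes did. The error of this test is the spread of the 3 time-point means, so a change of the ratio with time counts as error. The methods describe 5 transformants per strain harvested at all 3 times, so the 3 values may not be independent replicates. TRX2 (1.05 ± 0.19, SE, adjusted p = 0.0267), TSA2 (0.92 ± 0.17, 0.0278), CCP1 (1.12 ± 0.23, 0.03) and PRX1 (1.12 ± 0.26, 0.0368) were higher in the producer, a direction in which 11.5% of all genes were called. CTA1 was lower (−0.67 ± 0.12, adjusted p = 0.0267), as were 9.85% of genes. TSA1 (0.49, 0.0537), SOD2 (0.92, 0.0669), AHP1 (0.55, 0.0776) and CTT1 (−0.30, 0.218) did not pass. All 5 calls were lost without slide E of 72 h, with adjusted p from 0.052 to 0.066, while the calls over all genes went from 1207 to 255, and 7 members then still had an unadjusted p under 0.05. The call of PRX1 was also lost without slide D (0.0655). With the trend over neighbouring ORF names removed, 3 members passed, all higher, so the call of CTA1 was lost, and 796 of all genes passed. With medians of the slides, 1 member passed, in the lower direction, and 258 of all genes did.

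Around these enzymes, 40 related redox genes were listed, of which 39 had values and SRX1, the sulfiredoxin, was not analysed here. The list was drawn up with earlier results of these data known and holds genes that the study itself named, so its counts are a description. Over the time points, 9 were called higher and 2 lower, against 11.5% and 9.85% of all genes, and the median of the list was 0.22. SAM called 6 higher and 1 lower at 24 h (9.37% of all genes in either direction), 3 higher at 48 h (2.22% higher), and 4 higher and 2 lower at the last time point (6.44% in either direction). From 48 to 72 h limma called 12 of them lower, against 16.3% of all genes.

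Among genes that serve the members, CCS1, the copper chaperone of Sod1, had the largest mean ratio of the list, 1.26 ± 0.20 (SE, adjusted p = 0.0246), with 1.25, 1.73 and 0.80 at 24, 48 and 72 h. ATX1, a copper chaperone that also suppresses the loss of Sod1, had a mean of 0.84 (adjusted p = 0.0366) and was highest at 72 h with 1.34 ± 0.23 (n = 3 slides). CYC1, the main cytochrome c from which Ccp1 takes electrons, had 0.78, 1.16 and 0.15 at the 3 time points, with an adjusted p of 0.0624 over them. The means of CCP1 at these times were 1.31, 1.58 and 0.46.

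The thioredoxin system around TRX2 was not uniformly higher. TRX1, the paralog of TRX2, had means of 0.60 ± 0.28, 0.42 ± 0.53 and −0.22 ± 0.33, and TRX2 exceeded it within slides by 0.60 ± 0.52, 0.98 ± 0.43 and 0.79 ± 0.22. TRR1, the cytosolic thioredoxin reductase, was near 0 at 24 h (−0.08) and 48 h (0.08) and was called lower by SAM at 72 h, with −1.06 ± 0.40. TRR1 fell by 1.15 from 48 to 72 h (adjusted p = 0.00231). TRX3 and TRR2, the mitochondrial thioredoxin and reductase, had means between −0.21 and 0.55, and DOT5, a nuclear peroxiredoxin, lay between −0.20 and 0.07.

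Of the glutathione peroxidases, GPX1 was higher (1.25 over the time points, adjusted p = 0.0296, with 0.95, 2.02 and 0.80), and it was called by SAM at all 3 time points. HYR1, which passes the peroxide signal to Yap1, had means from 0.20 to 0.26, and GPX2 from −0.48 to 0.15. Among glutathione-linked genes, GTT2, a glutathione transferase (1.11, adjusted p = 0.0296), GRX5, the mitochondrial glutaredoxin of iron-sulfur cluster assembly (0.80, 0.0281), and GSH2, glutathione synthetase (0.67, 0.0281), were higher. GRX3, a glutaredoxin of iron regulation, was lower (−0.95, 0.0238) and near −1 at all 3 time points, and GRX1 (0.51, 0.056) missed the threshold. MXR1, a methionine sulfoxide reductase, was higher (0.70, 0.0354).

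The regulators did not move as a group. MSN2 (0.77, adjusted p = 0.0358) and YAP1 (0.49, 0.0455) were higher, SKN7 was lower (−0.49, 0.0414), and MSN4 (−0.67, 0.0818) did not pass. At 24, 48 and 72 h MSN4 had −0.17, −1.30 ± 0.94 (n = 4 slides) and −0.54. HAP4, the activating subunit of the respiratory gene activator, was called higher by SAM at 24 h, with 0.92 ± 0.14, and had 0.27 and 0.28 at the later times. HAP1, a heme-dependent activator, had means of 0.21, 0.06 and 0.50, and YBP1, also counted among the regulators, had −0.25, −0.42 and −0.08.

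**Figure D4:**
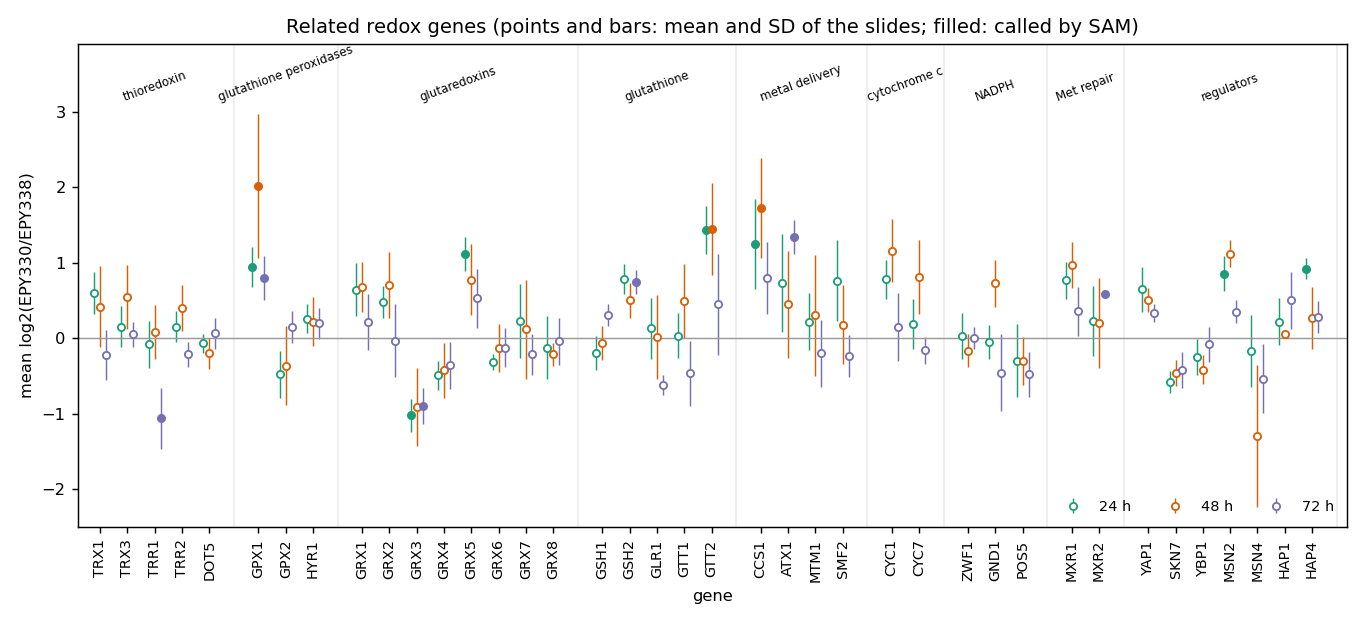
Mean log2(EPY330/EPY338) (y axis) of the 39 related redox genes with values (x axis, grouped by role) at 24, 48 and 72 h, with bars for the SD of the slides and filled points for genes called by SAM. GPX1 and CCS1 have the highest points, 2.02 and 1.73 at 48 h. MSN4 has the lowest, −1.30 ± 0.94 at 48 h (n = 4 slides). TRR1 is low at 72 h alone (−1.06), and GRX3 is low at all 3 time points.

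The genes with the most similar profile were sought among the 4929 genes with a value on every slide, by the root mean square difference over the 14 slides from the mean profile of PRX1, SOD2 and CCP1. PRX1 (0.13), CCP1 (0.20) and SOD2 (0.21) lie near their own mean by construction, at ranks 1, 3 and 4. Among the nearest other genes were ATP17 (YDR377W, 0.20), a subunit of the mitochondrial ATP synthase, RPL42A (YNL162W, 0.25), a ribosomal protein, NCE103 (YNL036W, 0.25), carbonic anhydrase, and DPP1 (YDR284C, 0.26), a lipid phosphatase. ATP17 had means of 1.38 ± 0.21, 1.56 ± 0.30 and 0.29 ± 0.42, against 1.33, 1.55 and 0.28 for the mitochondrial enzymes. Of the other members TRX2 came nearest (0.32, rank 17), followed by TSA2 (0.40, rank 66) and AHP1 (0.62, rank 288), and CTA1 was the farthest (1.89, rank 4549). Per the methods the slides of a time point share their RNA pools, so this likeness is over 3 pairs of pools measured repeatedly.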

How the data were processed

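Per the labels, total RNA pools of EPY338 (Alexa647) and EPY330 (Alexa555) were hybridized together to spotted cDNA slides. The authors extracted intensities with GenePix Pro 6.1, removed aberrant and dim spots and applied lowess normalization in BRB-ArrayTools 3.5.0. The deposited values are log2(EPY338/EPY330), 1 per ORF and slide, and their sign was turned. Intensities were not used here, and each mean is only as precise as 4 or 5 slides make it, while the spread between cultures cannot be given from 1 pair of pools per time point. Genes needed values on at least 3 slides per time point. One-class SAM was rebuilt in Python 3.11.15 (all sign flips, median false discovery rate of at most 0.2%), since the study's methods name SAM at this limit with no further settings, and limma 3.58.1 in R 4.3.3 gave the tests over and between time points, with Benjamini-Hochberg adjustment over all genes. The procedures were checked on simulated data. The members and the lists were chosen with earlier results of these data known. All members were named, the 12 related genes with the largest mean ratio plus their thioredoxin, glutathione peroxidase and regulator genes, and the 5 nearest profiles, of which 1 is not reported here. Gene symbols came from RefSeq by ORF name. Alternatives were a false discovery rate of 1%, complete or imputed genes, a trend over neighbouring ORF names removed, medians of slides, other limits, blocks and single slides left out.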

Additional observations from a re-analysis of the deposited data

Results flagged for a closer look

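Of the 27 groups of slides tested (9 members at 3 time points), 1 held a slide far from the others, where chance flags about 1 in 20 groups. Slide A of 24 h gave 0.73 for SOD2, below the other slides of 24 h at 1.36 to 1.43.

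Over all 5652 genes tested, limma called 56 from 24 to 48 h, 810 from 24 to 72 h and 1709 from 48 to 72 h. Of 27 contrasts of the members between time points, 9 passed the limma test of the difference itself (adjusted p under 0.05). They were the falls from 48 to 72 h of SOD2 (−1.43), PRX1 (−1.26), CCP1 (−1.12), TRX2 (−0.84), TSA2 (−0.74), AHP1 (−0.69) and CTT1 (−0.51), and those from 24 to 72 h of SOD2 (−1.19) and PRX1 (−1.12). Slides D and E of 72 h were higher than A to C for all of these genes except CTT1, of which only D was higher. Since the falls are enlarged by construction when high slides of 72 h are left out, the values without D and E are a description, with −1.81, −1.66, −1.54, −1.07, −0.93, −1.12 and −0.64 from 48 to 72 h and −1.57 and −1.52 from 24 to 72 h. The calls of AHP1 and CTT1 were each lost when any 1 of 9 slides was left out.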

How the results depend on the processing

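At 24 h, 5 members were called by SAM, and 9 by limma on the slides (adjusted p under 0.05). At 48 h the 3 calls became 6 at a false discovery rate of 1%, 8 with complete genes alone, 6 with missing values imputed, 5 with the trend along ORF names removed, and 5 or 8 by limma (adjusted p at most 0.002, or under 0.05). At 72 h the 0 calls became 3 at 1%, 2 with imputed values and 4 by limma. Over the time points, the 5 calls became 3 with the trend removed, 1 with medians of slides and 0 at an adjusted p of at most 0.002 or without D and E of 72 h, an alternative chosen after seeing the data, where 6 members had an unadjusted p under 0.05 and limma called 0 of all genes. The 2 calls from 24 to 72 h became 4 with the 24 h and 72 h slides alone, 6 without D and E, and 0 at 0.002, and the 7 from 48 to 72 h became 1 at 0.002.

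The lead of the mitochondrial enzymes became 0.24 at 24 h and 0.16 at 48 h with CTA1 counted among them, and 0.45 at 24 h without CTT1, a choice also made after seeing the data. At 72 h it turned to −0.16 with CTA1, −0.0861 without CTT1, −0.10 without D and E, −0.0274 with the median of each class and −0.0129 with the trend removed. Single values that changed sign were TSA1 at 72 h (−0.0692 with the trend removed), PRX1 (−0.0694), AHP1 (−0.35) and SOD2 (−0.33) at 72 h without D and E, SOD2 at 72 h with the median of the slides (−0.13), and CTA1 from 24 to 48 h (0.0673 with the trend removed, 0.0186 with the replicate block). For none of these was the cause tested.

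Leaving out single slides gave 5 to 6 members at 24 h, 0 to 5 at 48 h, 0 at 72 h and 0 (without E of 72 h) to 8 (without C of 72 h) over the time points. The contrasts held 0 members from 24 to 48 h, 0 (without B of 24 h, where 4 had an unadjusted p under 0.05) to 5 (without E of 72 h) from 24 to 72 h, with 4 without B of 48 h and 1 without A, B or C of 72 h, and 5 to 7 from 48 to 72 h. Over all genes the same settings gave 441 to 959 calls at 24 h, 87 to 285 at 48 h, 138 to 311 at 72 h, 255 (without E of 72 h) to 1546 (without C) over the time points, and 36 to 97, 174 (without B of 24 h) to 1280 (without B of 48 h) and 1079 to 2380 in the contrasts from 24 to 48, 24 to 72 and 48 to 72 h. The class difference ranged from 0.63 to 0.86, from 0.65 to 0.79 and from 0.006 to 0.15. Sign changes were seen at 72 h for AHP1 (−0.17 to 0.24) and SOD2 (−0.15 to 0.19), from 24 to 48 h for TSA1 (−0.085 to 0.0318), AHP1 (−0.0828 to 0.0375) and CTA1 (−0.12 to 0.13), from 24 to 72 h for CTT1 (−0.0065 to 0.24) and CTA1 (−0.10 to 0.19), and from 48 to 72 h for CTA1 (−0.10 to 0.19).

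The slide letters did not pair the slides: deviations of slides with the same letter correlated at −0.56 to 0.67, over 0.1 in 6 of 13 pairs, and 5 of 14 slides correlated best with their own letter. With the replicate block, 0 members were called from 24 to 48 h, 5 from 24 to 72 h and 6 from 48 to 72 h. Without the block these counts were 0, 2 and 7. Over all genes, the block also raised the calls from 24 to 72 h above the 810 found without it. Calls over all genes from 24 to 48 h fell below 56, and those from 48 to 72 h just below 1709.

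Over all genes, the 549 calls of 24 h became 1255 at 1%, 941 with complete genes, 984 with imputed values, 1044 with the trend removed (680 of them higher, compared with 437 of 549), and 1133 or 2744 by limma. The 130 of 48 h became 1080, 1377, 1203, 229, 373 and 2120 in the same order. The 383 of 72 h became 1520 at 1%, 762 with complete genes, 1281 with imputed values, 592 or 2562 by limma and 1038 without D and E. The 1207 over the time points became 796 with the trend removed and 258 with medians. The contrasts called 56, 810 and 1709 genes, and 15, 23 and 121 at an adjusted p of at most 0.002. From 24 to 72 h, 1499 were called with the slides of these times alone and 1248 without D and E. Centring each slide on its median moved none of these counts by over 1.5 times.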
